A study of Mus musculus with 6 samples.

Results

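This account covers 37 mouse genes of base excision, nucleotide excision and mismatch repair, with the direct reversal enzyme gene Mgmt, in spleens taken 24 h after total body irradiation. The genes came from a fixed list of symbols matched to the gene names in the array files, a list drawn up with earlier results of these data known. All 37 were well above background on all 6 arrays, out of 26638 genes tested. They fall into 11 DNA glycosylases, 8 genes of the later base excision steps, 12 nucleotide excision genes, 5 mismatch genes and Mgmt.

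The mice were of strain B10.BALB-16.C2A. One group received 900 cGy from an X-ray cabinet irradiator and was sampled 24 h later, and the other consisted of resting mice given 0 cGy. Each group had 3 one-colour Agilent arrays, and each array carried whole-spleen RNA pooled from 3 mice. The labels do not give age or sex, or say whether the pools came from separate irradiations, so a p-value here measures only the spread between pools.

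These pathways deal with damage to 1 strand or with mispaired bases. In base excision repair a DNA glycosylase cuts out a single damaged base, an endonuclease opens the backbone at the empty site, and a polymerase and a ligase close the gap. Nucleotide excision repair cuts out a short stretch around a bulky lesion, found either across the whole genome or where transcription has stalled, and mismatch repair removes replication errors behind the fork. Ionising radiation leaves many oxidised bases and single-strand breaks, which are base excision substrates. Spleen holds lymphocytes that are very sensitive to radiation, and in mice also dividing erythroid precursors.

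A level below is the log2 processed signal minus the log2 of the 75th percentile of that array, so 0 is the 75th percentile. It can be compared between arrays for the same gene but not between genes. A change is the mean level at 900 cGy minus that at 0 cGy with its standard error (SE), tested with limma over all 6 arrays and with p-values adjusted after Benjamini and Hochberg across the 26638 genes and a threshold of 0.05.

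The probes of 3 genes are shown because their letters bear on what was measured. The Parp1 probe and one of the Msh3 probes cover more genome than their own length, so they join bases across at least 1 intron and read spliced RNA. The only Ung probe ends in a run of GT, which begins at base 27 and goes on to base 60; its first 30 bases are shown, and capitals mark the repeat. The positions are those of the array files (mm9), namely chr1:182530341-182530639 on the plus strand for Parp1, chr13:93115018-93116708 on the minus strand for Msh3 and chr5:114588731-114588790 on the plus strand for Ung.
Parp1 probe: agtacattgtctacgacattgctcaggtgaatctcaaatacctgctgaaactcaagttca
Msh3 probe: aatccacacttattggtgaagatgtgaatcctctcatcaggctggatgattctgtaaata
Ung probe, first 30 bases: tatcctttagagttagagatttcaaaGTGT

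Most of the repair genes that changed were lower after irradiation. Of the 37, 21 were lower and 3 were higher at 900 cGy, and 13 did not pass the threshold. That is 56.8% lower and 8.11% higher among the repair genes, against 31.0% lower and 28.3% higher over all genes tested. At 1.5-fold or more, 12 repair genes (32.4%) were lower and 2 (5.41%) higher, where 19.5% and 21.4% of all genes were. The median change of the repair genes was -0.40, beside -0.06 for all genes tested. The 3 that rose were Mgmt, Neil2 and Ercc5. In whole-spleen RNA, fewer cells of a type and less RNA per cell cannot be told apart, and this applies to every value below.

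**Figure D1:**
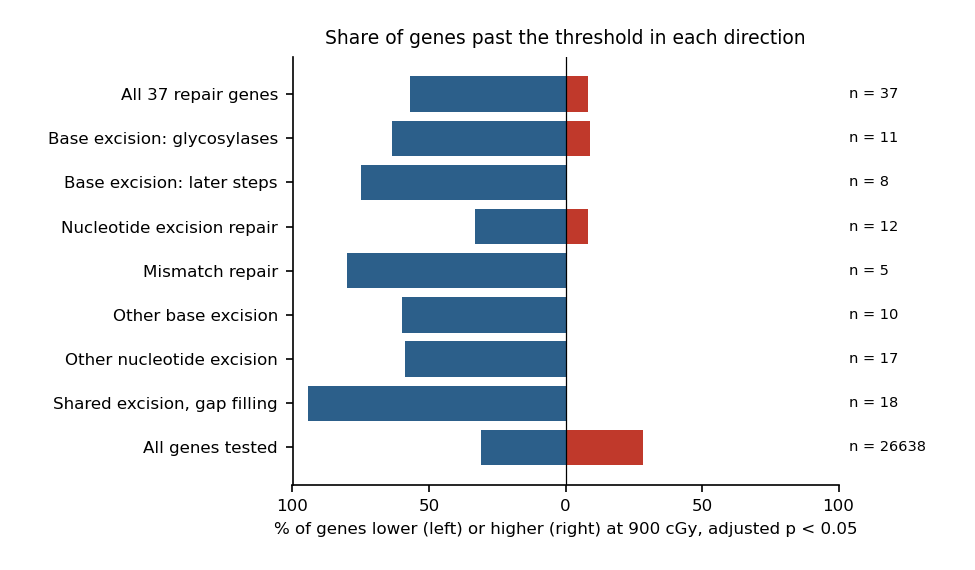
Percentage of genes lower (bars to the left, blue) or higher (bars to the right, red) at 900 cGy than at 0 cGy at an adjusted p below 0.05, for the repair genes, their pathways, other repair lists and all genes tested, with the number tested at the right. The repair genes have 56.8% lower and 8.11% higher, against 31.0% and 28.3% of all genes tested.

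Marker lists of cell types in spleen and of neighbouring tissue also moved between the groups. B and T cell markers were well above background on every array, as were the macrophage markers. The B cell list had a mean level of 0.67 to 0.86 at 900 cGy and 3.50 to 3.96 at 0 cGy, with 10 of 10 genes lower. The T cell list stood at 0.51 to 0.61 at 900 cGy and 2.35 to 2.89 at 0 cGy, also with 10 of 10 lower. Markers of dividing cells stood at -1.41 to -1.29 at 900 cGy and 0.32 to 1.76 at 0 cGy, with 9 of 9 tested lower and Aurkb not well above background in either group. The erythroid precursor list stood at -4.20 to -3.69 at 900 cGy and 1.97 to 3.68 at 0 cGy, with 10 of 10 lower and Add2 and Rhd not well above background at 900 cGy. Macrophage markers went the other way, at 5.0 to 5.12 at 900 cGy and 2.87 to 3.05 at 0 cGy, with 10 of 10 higher. So did all 5 plasma cell markers, 7 of 7 measured stromal, 4 of 6 endothelial and 5 of 5 adipocyte markers. Exocrine pancreas is no part of the spleen, yet its list stood at 6.96 to 7.32 at 900 cGy and -3.78 to 3.59 at 0 cGy, with 7 of 8 genes higher and a median change of 6.88, above that of every other list. The pools, those at 900 cGy above all, thus held RNA of genes that mark another tissue, and how much of that tissue they held was not tested. Neutrophil markers overlapped, at 3.57 to 3.90 at 900 cGy and 2.71 to 3.88 at 0 cGy, with 1 of 6 higher. The part of these shifts in the changes of the repair genes was not tested.

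Of the 11 glycosylase genes, 7 were lower, 1 was higher and 3 did not pass, with a median change of -0.41. The share lower was 63.6%, against 31.0% of all genes tested. At 1.5-fold or more 3 were lower (27.3%), against 19.5% of all genes. A pair of related genes moved in opposite directions. Neil3, an enzyme that removes oxidised bases mainly from single-stranded DNA and is expressed in dividing cells, had levels of -2.68, -3.14 and -2.77 at 900 cGy, against 1.08, 0.78 and -0.48 at 0 cGy. The groups did not overlap, and the third 0 cGy array stood below the other 0 cGy arrays. The change of -3.32 ± 0.40 was a 10-fold fall (limma, adjusted p = 0.000642). Neil2, a sister enzyme that acts on oxidised pyrimidines and is linked to transcribed genes, had levels of -1.02, -1.07 and -0.95 at 900 cGy and -2.55, -2.37 and -2.24 at 0 cGy. Every 900 cGy pool was above every 0 cGy pool, with a change of 1.37 ± 0.10 or 2.59-fold (limma, adjusted p = 0.00012). Neil2 was the only glycosylase gene that rose, and its single probe lies at chr14:63801282-63801341, while that of Neil3 lies at chr8:54672466-54672525 (both mm9).

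Taken within pools, the Neil2 level minus the Neil3 level was 1.66 to 2.07 at 900 cGy and -3.63 to -1.77 at 0 cGy, so the changes of the pair differed by 4.70 ± 0.57. The exact permutation p was 0.1, the smallest that 3 pools against 3 allow, and 0.225 after adjustment over the 9 pairs of known partners compared here.

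The other glycosylase genes that changed were lower. Mbd4, which removes thymine and uracil mispaired with guanine, had levels of -0.45, -0.64 and -0.63 at 900 cGy and 0.42, 0.61 and 0.50 at 0 cGy. Its change was -1.08 ± 0.10 (limma, adjusted p = 0.000206), with no overlap. Mutyh, which removes adenine paired with oxidised guanine, had levels of -0.46, -0.49 and -0.45 at 900 cGy and 0.13, 0.35 and 0.76 at 0 cGy. The 900 cGy pools of Mutyh lay close together and below all 0 cGy pools, which were more spread, and the change was -0.88 ± 0.16 (limma, adjusted p = 0.00376). A second Mutyh probe gave -0.83.

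Smaller falls were seen for Smug1, a uracil glycosylase, at -0.56, for Mpg, which removes alkylated purines, at -0.52, for Tdg, which removes thymine and oxidised methylcytosine from pairs with guanine, at -0.41, and for Neil1, which acts on oxidised pyrimidines, at -0.38. The call for Neil1 was the least firm of these: it was lost when any 1 of the 3 irradiated pools or the second 0 cGy pool was left out, with adjusted p between 0.0649 and 0.0739. A second Neil1 probe changed by -0.64 (limma, adjusted p = 0.00124). A second Mpg probe changed by -0.26 and did not pass.

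Ogg1, which removes oxidised guanine, and Nthl1, which removes oxidised pyrimidines, did not pass, with changes of 0.11 (95% interval -0.08 to 0.30) and 0.15 (-0.07 to 0.37). For Ung, the main uracil glycosylase, the change was 0.15, and the interval of -0.30 to 0.60 is wide. Its levels were 5.86, 6.07 and 6.11 at 900 cGy and 5.81, 6.24 and 5.54 at 0 cGy, and they overlapped. The same array held 76 probes among 55681 with a GT or CA run of at least 20 bases. The 75 others, none of them for a repair gene here, all passed the background filter, and all changed by -0.38 to 0.36 with a median of 0.11 and no call in either direction (limma on all passing probes; 1 had an unadjusted p below 0.05). The Ung change lies inside that range. How much of the Ung signal comes from the repeat was not tested.

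Downstream of the glycosylases the direction was uniform among the genes that changed. Of 8 genes, 6 were lower (75%, against 31.0% of all genes tested) and none higher by limma. At 1.5-fold or more 2 were lower (25%), near the 19.5% of all genes, so most of these falls were small. Apex2 and Aptx did not pass, and 1 of them, Aptx, was higher at an unadjusted p below 0.05. The steepest fall was in Parp1, whose protein senses strand breaks and recruits the repair scaffold, with levels of 0.26, 0.27 and 0.11 at 900 cGy and 1.81, 1.76 and 1.94 at 0 cGy. The pools of each group agreed closely and the groups were far apart, with a change of -1.62 ± 0.09 or 3.08-fold lower (limma, adjusted p = 6.81e-05). Apex1, the main endonuclease for empty sites, had levels of 1.40, 1.42 and 1.44 at 900 cGy and 2.72, 2.52 and 2.45 at 0 cGy. Its change was -1.14 ± 0.10 (limma, adjusted p = 0.000165), again without overlap.

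The related genes Parp2 and Apex2 moved less. Parp2, a second break-activated polymerase, fell by 0.54, and within pools Parp1 relative to Parp2 stood at 0.27 to 0.38 at 900 cGy and 1.23 to 1.5 at 0 cGy, a difference of changes of -1.08 ± 0.09. Apex2, the minor endonuclease, changed by -0.19 (95% interval -0.37 to 0.00, limma, adjusted p = 0.0812), and Apex1 relative to Apex2 differed by -0.96 ± 0.05. Both differences had an exact permutation p of 0.1 and 0.225 after adjustment over the 9 pairs.

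Polb, the gap-filling polymerase, fell by 0.52, Xrcc1, the scaffold, by 0.40, and Lig3, the ligase that XRCC1 carries, by 0.37. Xrcc1 and Lig3 kept their ratio, with a difference of changes of -0.03 ± 0.05 and overlapping pools. A second Lig3 probe changed by -0.27 and did not pass. Aptx, which cleans abortive ligation ends, changed by 0.37 (95% interval 0.05 to 0.69, limma, adjusted p = 0.0512). It passed as higher when the third 0 cGy pool was left out (0.48, limma, adjusted p = 0.0114) and with normexp background correction (0.35, adjusted p = 0.0349). Aptx has 1 probe, so averaging probes left its change at 0.37 and moved only the adjusted p, to 0.0499.

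**Figure D2:**
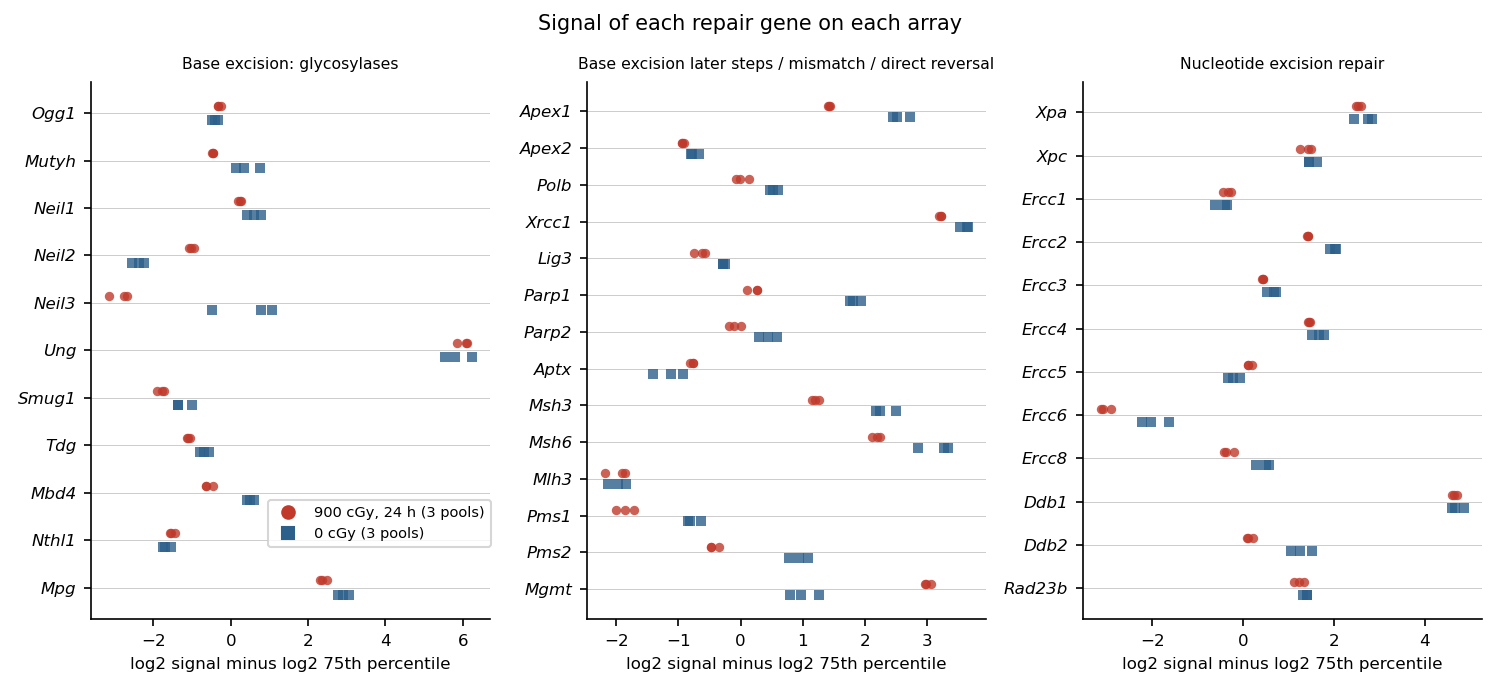
Level of each repair gene on each array, as log2 processed signal minus the log2 75th percentile of the array, with 900 cGy pools as red circles above and 0 cGy pools as blue squares below on each line (3 pools each, each of 3 mice). Levels compare arrays for 1 gene, not genes with each other; Mgmt and Neil2 lie to the right at 900 cGy, and Neil3, Parp1 and the mismatch genes except Mlh3 lie to the left.

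Nucleotide excision repair had more genes that did not pass than genes that did. Of 12 genes, 4 were lower, 1 was higher and 7 did not pass, with a median change of -0.18. The share lower, 33.3%, is near the 31.0% of all genes tested. Among the damage sensor genes 1 passed, Ddb2. Ddb2, the subunit that binds ultraviolet lesions in chromatin, had levels of 0.22, 0.09 and 0.10 at 900 cGy and 1.05, 1.25 and 1.52 at 0 cGy. The groups did not overlap and the change was -1.14 ± 0.13 (limma, adjusted p = 0.000581). Ddb1, its partner and an adaptor of many ubiquitin ligases, changed by -0.05 (95% interval -0.29 to 0.18), and Ddb2 relative to Ddb1 differed by -1.08 ± 0.18 (exact permutation p = 0.1, adjusted 0.225). Xpc, the other genome-wide sensor, changed by -0.11 (-0.35 to 0.14) and its partner Rad23b by -0.15 (-0.36 to 0.06); the 3 Rad23b probes gave -0.30 to 0.05.

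DDB2 and XPC are targets of the p53 pathway in human cells, and the p53 target genes of these spleens are given beside them. Of 14 known p53 target genes on a separate list, 13 were higher and none lower by limma (1 lower at an unadjusted p below 0.05), counting Eda2r, a gene that was well above background only at 900 cGy and so had to differ, with a median change of 1.78. Cdkn1a, the cell cycle inhibitor, changed by 4.61. Gdf15, a secreted stress factor, changed by 3.77. In the same pools Ddb2 fell and Xpc did not pass.

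Both of the repair genes listed here for transcription-coupled recognition fell. Ercc6, which encodes the CSB protein that binds stalled polymerase, had levels of -2.91, -3.08 and -3.13 at 900 cGy and -2.23, -2.03 and -1.64 at 0 cGy. Its change was -1.07 ± 0.16 (limma, adjusted p = 0.00171). Ercc8, which encodes the ubiquitin ligase subunit CSA, had levels of -0.21, -0.37 and -0.43 at 900 cGy and 0.57, 0.50 and 0.29 at 0 cGy, a change of -0.79 ± 0.11 (limma, adjusted p = 0.00122). No 900 cGy pool reached the 0 cGy range for either gene, and their changes differed by -0.28 ± 0.26 with overlapping pools (exact permutation p = 0.4).

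Among the unwinding and cutting genes, Ercc2, a helicase of the TFIIH complex, fell by 0.58 (SE 0.08, limma, adjusted p = 0.000984). Ercc5, the nuclease that cuts on the 3′ side, went the other way, with levels of 0.19, 0.11 and 0.11 at 900 cGy and -0.34, -0.23 and -0.06 at 0 cGy. The pools did not overlap, but the change was small, 0.35 ± 0.10 (limma, adjusted p = 0.0218). The Ercc5 call was lost on leaving out any 1 irradiated pool or the second 0 cGy pool (adjusted p 0.0614 to 0.0696) and with spike-in scaling (0.08), and a second Ercc5 probe changed by 0.09 and did not pass. Ercc3, the other TFIIH helicase, changed by -0.22 (-0.42 to -0.01, limma, adjusted p = 0.0706). Ercc1 and Ercc4, the subunits of the other nuclease, changed by 0.11 (-0.14 to 0.36) and -0.20 (-0.44 to 0.03), and the lesion-checking protein gene Xpa by -0.15 (-0.44 to 0.15). Without the first 0 cGy pool, Xpa and Ercc4 passed as lower (-0.26 and -0.28), as did Ercc3 without the second (-0.28).

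Mismatch repair had the lowest pathway median, -1.09. Of its 5 genes, 4 were lower, each by more than 1.5-fold, and none was higher by limma, also at an unadjusted p below 0.05 (0 of 5). That is 80% lower at 1.5-fold or more, against 19.5% of all genes tested. Msh3, which recognises larger loops, had levels of 1.15, 1.20 and 1.26 at 900 cGy and 2.18, 2.50 and 2.25 at 0 cGy. Its change was -1.11 ± 0.11 (limma, adjusted p = 0.000279), and 3 probes of the gene gave -1.31 to -1.11, with -1.16 for the one whose letters are shown above. Msh6, which recognises single mispairs and small loops, had levels of 2.24, 2.11 and 2.19 at 900 cGy and 3.34, 3.27 and 2.85 at 0 cGy, a change of -0.97 ± 0.14 (limma, adjusted p = 0.00147). The groups were separate for both sensor genes, and their changes differed by -0.13 ± 0.17 with overlapping pools (exact permutation p = 0.5).

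The genes of the nicking and accessory subunits split. Pms2, which encodes the subunit that nicks the strand to be removed, had levels of -0.34, -0.47 and -0.47 at 900 cGy and 1.09, 0.94 and 0.78 at 0 cGy. This was a change of -1.36 ± 0.11 or 2.57-fold lower (limma, adjusted p = 0.000131), and a second probe gave -1.21. Pms1, a related subunit of less clear role, had levels of -1.72, -2.00 and -1.86 at 900 cGy and -0.64, -0.82 and -0.85 at 0 cGy, a change of -1.09 ± 0.11 (limma, adjusted p = 0.000303). No pool overlapped between groups for either gene. Mlh3, whose product also acts in meiotic crossing over, changed by 0.00 with a 95% interval of -0.30 to 0.31, which leaves out falls of the size seen in the other 4 genes.

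**Figure D3:**
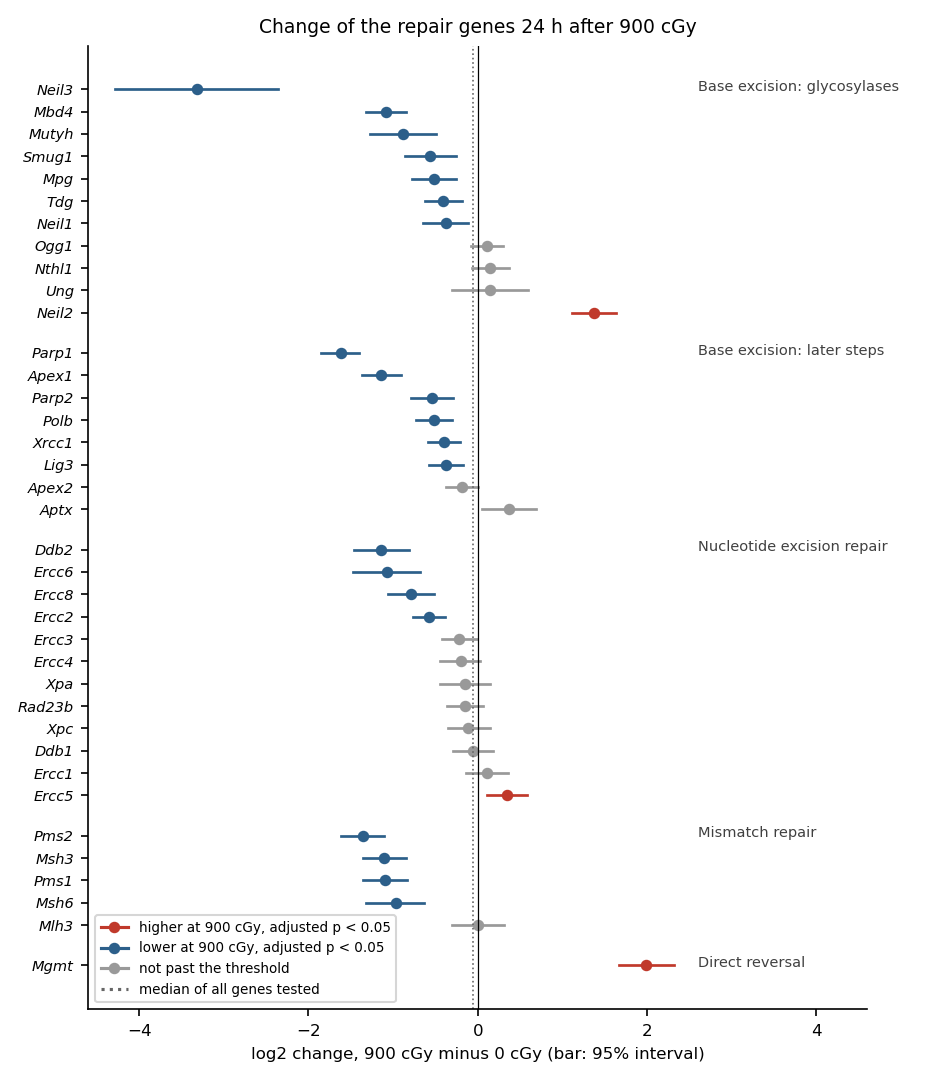
Change of each repair gene, as the mean log2 level at 900 cGy minus that at 0 cGy (points) with its 95% interval from limma (bars), grouped by pathway; colours give the call at an adjusted p below 0.05 and the dotted line is the median of all genes tested, -0.06. Neil3 at -3.32 and Mgmt at 1.99 are the ends of the range.

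Mgmt rose most. It encodes the enzyme that takes alkyl groups off guanine in a single step and is used up in doing so. Its levels were 3.07, 2.97 and 2.98 at 900 cGy and 0.98, 1.27 and 0.79 at 0 cGy. The 900 cGy pools agreed closely and lay far above the 0 cGy pools, with a change of 1.99 ± 0.13 or 3.99-fold (limma, adjusted p = 9.02e-05). The single probe lies at chr7:144319790-144319849 on the plus strand (mm9). Alkbh2 and Alkbh3, which reverse other alkyl damage, each changed by -0.13 and did not pass. Macrophage, plasma cell, stromal, adipocyte and exocrine pancreas markers were higher in the same pools as Mgmt and Neil2. Within the 0 cGy pools the exocrine pancreas list ranged widely, at -3.78, 3.59 and 1.37, while Mgmt stood at 0.98, 1.27 and 0.79 and Neil2 at -2.55, -2.37 and -2.24. The part of any of these cell types in the rise of Mgmt and Neil2 was not tested.

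The direction was also downward in other genes of the same pathways, and none of the genes on 3 further lists was higher by limma, with 0 higher at an unadjusted p below 0.05. Over all genes tested, 31.0% were lower and 28.3% higher, and 19.5% were lower by 1.5-fold or more. Of 10 further base excision and break-end genes, 6 were lower (60%), 5 of them (50%) by 1.5-fold or more, with a median change of -0.55. Dut, which keeps uracil out of the nucleotide pool, changed by -2.19, the replicative ligase gene Lig1 by -1.79 and the flap nuclease gene Fen1 by -1.66. Of 17 further nucleotide excision genes, 10 were lower (58.8%), 5 of them (29.4%) by 1.5-fold or more, with a median of -0.38. Of 18 genes for the excision and gap filling that these pathways share with replication, 17 were lower (94.4%), 14 of them (77.8%) by 1.5-fold or more. Their median was -1.09. Exo1, the nuclease of mismatch excision, changed by -2.37, the replicative polymerase gene Pole by -2.17 and the clamp loader gene Rfc4 by -1.91.

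The 0 cGy pools were not alike, and some of the repair genes also differed between them. Relative to the mean of the first and second 0 cGy arrays, the third had markers of dividing cells lower by a log2 difference of -1.30 and of erythroid precursors by -1.55, while its B and T cell lists differed by 0.38 and 0.40. Its neutrophil list differed by -1.01, its plasma cell list by 0.46 and its exocrine pancreas list by 1.47. In the same array Neil3 stood -1.41, Ung -0.49 and Msh6 -0.45 from that mean, and Mutyh 0.52, Ercc6 0.49 and Ddb2 0.37. These were the furthest in each direction, and the other repair genes lay between -0.33 (Mgmt) and 0.35 (Smug1). The p53 target list differed by -0.03. Without the third 0 cGy pool, Neil3 changed by -3.79, Msh6 by -1.13 and Mgmt by 1.88, and 4 repair genes were higher and 21 lower. The part of cell make-up in these differences was not tested.

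**Figure D4:**
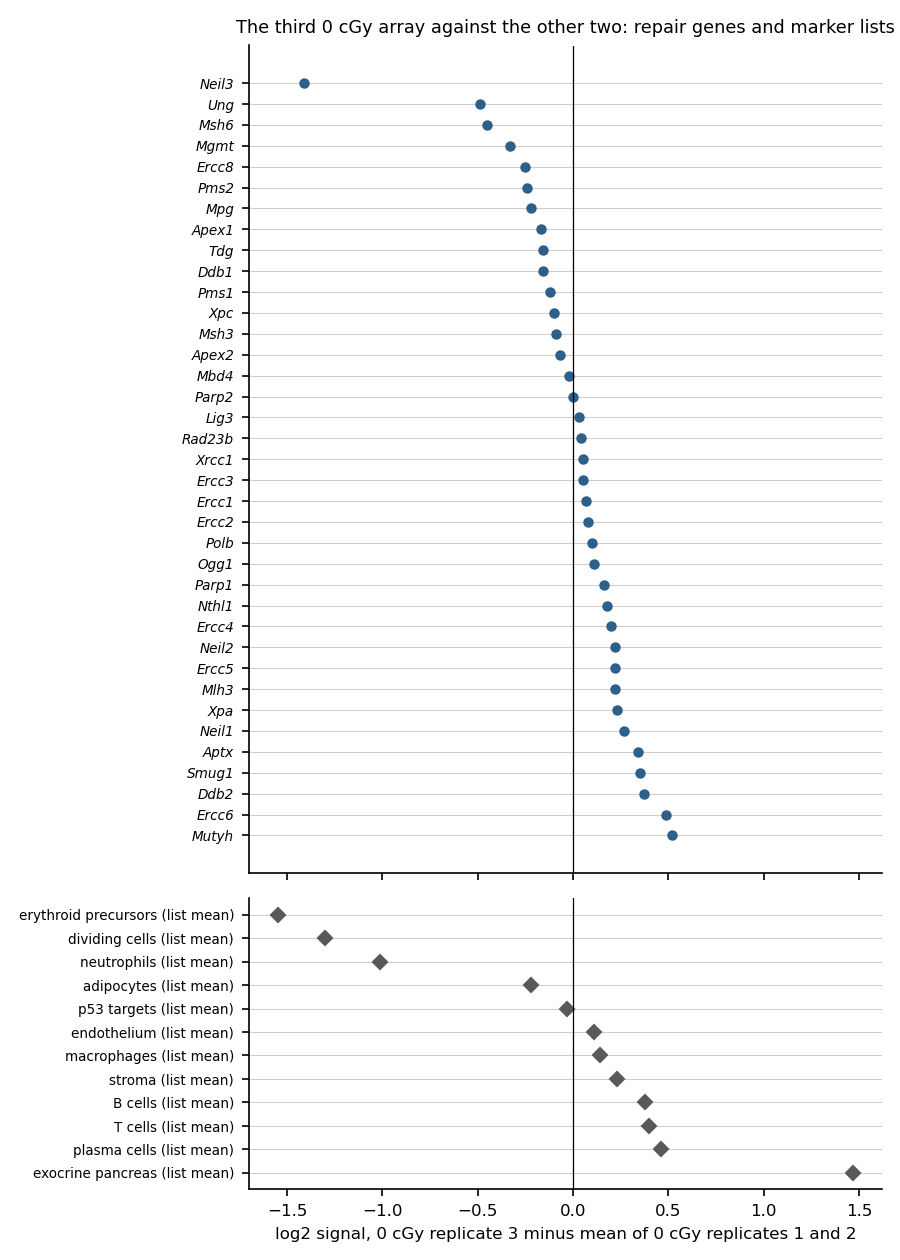
Log2 level of each repair gene (circles, top) and mean level of each marker list (diamonds, bottom) on the third 0 cGy array minus the mean of the first and second 0 cGy arrays. The repair genes run from Neil3 at -1.41 to Mutyh at 0.52, and the lists from erythroid precursors at -1.55 to exocrine pancreas at 1.47.

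The arrays lay on 1 slide, and the files give the row and column of each. The 900 cGy arrays lay in columns 4, 1 and 2 and the 0 cGy arrays in columns 1, 2 and 3, and only the row was used as a block. Row 1 held the 3 arrays at 0 cGy and the first at 900 cGy, and row 2 held the other 900 cGy arrays only. With the row as a block, 2 repair genes were higher and 16 lower, against 5674 and 6278 of all genes tested, and Ercc5, Neil1, Tdg, Xrcc1, Lig3 and Parp2 lost their calls. Within row 1 alone 2 were higher (Mgmt 2.06, Neil2 1.37) and 9 lower (Neil3, Mbd4, Apex1, Parp1, Ddb2, Msh3, Msh6, Pms1 and Pms2), in a fit where the lone 900 cGy array is assumed to vary like the 0 cGy arrays. Row 2 held no 0 cGy array, so both fits took each change from row 1, with its lone 900 cGy array. Their changes were therefore the same. All 24 genes called over all arrays kept their sign in both fits, but their groups did not overlap, so no sign could turn. Neil3 changed by -3.14, Parp1 by -1.58 and Msh6 by -0.92 within row 1.

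The probes of the other genes given array by array lie elsewhere in mm9. For base excision they are Mbd4 at chr6:115792515-115792574, Mutyh at chr4:116491926-116491985 and Apex1 at chr14:51546483-51546542. For nucleotide excision they are Ddb2 at chr2:91052013-91052072, Ercc6 at chr14:33392986-33393045, Ercc8 at chr13:108984622-108984681 and Ercc5 at chr1:44237384-44237443. For mismatch repair they are Msh6 at chr17:88390143-88390202, Pms1 at chr1:53246133-53246192 and Pms2 at chr5:144692034-144692093, and the Msh3 probe reported above is at chr13:92981875-92981934. An mm9 annotation was not used here, so the probes are not placed in exons or introns beyond the spans given above.

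Promoter letters were searched for E2F sites, since many replication genes are known E2F targets, and for other motifs. Whether E2F had a part in any fall was not tested. RefSeq promoters (GRCm38.p6, 250 bases before to 50 after the start) were matched for 31 of the 37 genes, giving 35 promoters out of 32851. Apex2, Polb, Ercc3, Xpc, Ddb2 and Neil2 had no promoter there, so the 3 promoters of higher genes are those of Mgmt and Ercc5. The E2F letters searched were TTTCCCGC, TTTGGCGC, TTTCGCGC and TTTGCCGC on both strands, with overlaps with other motifs allowed. They occurred in 2 of 20 promoters of lower genes (10%), in 1 of 12 of genes that did not pass and in 0 of 3 of higher genes, against 2.26% of all promoters. The 2 were Msh3 and Msh6, and the third was Nthl1, whose level did not pass. The promoters of Pms1, Pms2 and Neil3, which also fell, had no match. They are shown because they are the only matches among the 19 lower genes with a promoter in the table; capitals mark the E2F letters, and in Msh3 overlapping matches on opposite strands merge. Msh3 lies at chr13:92354954-92355253 on the minus strand and Msh6 at chr17:87974800-87975099 on the plus strand (GRCm38.p6).
Msh3 promoter: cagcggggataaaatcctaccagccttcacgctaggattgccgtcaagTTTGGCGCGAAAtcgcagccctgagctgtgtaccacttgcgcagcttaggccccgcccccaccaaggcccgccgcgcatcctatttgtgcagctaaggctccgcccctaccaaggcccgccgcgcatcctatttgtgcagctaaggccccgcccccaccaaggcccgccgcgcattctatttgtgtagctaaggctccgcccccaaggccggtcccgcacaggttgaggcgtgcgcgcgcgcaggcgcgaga
Msh6 promoter: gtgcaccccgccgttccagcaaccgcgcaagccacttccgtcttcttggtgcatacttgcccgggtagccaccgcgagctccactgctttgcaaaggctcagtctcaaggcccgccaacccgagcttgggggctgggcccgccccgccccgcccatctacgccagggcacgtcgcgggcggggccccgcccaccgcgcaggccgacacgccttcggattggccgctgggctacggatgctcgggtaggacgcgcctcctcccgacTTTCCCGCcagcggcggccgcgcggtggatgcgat

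The other letters searched were more common. The GC box GGGCGG, a site for Sp1-type factors, was in 16 of 20 promoters of lower genes (80.0%), 7 of 12 of genes that did not pass and 1 of 3 of higher genes, beside 35.7% of all promoters. That 1 was a promoter of Mgmt with 4 matches. The CCAAT box was in 13 of 20 (65.0%), 8 of 12 and 1 of 3, beside 37.4%. The p53 half-site was in 2 of 20, those of Neil1 and Neil3, and in none of the 12 or the 3, beside 8.36% of all promoters. Ddb2 and Xpc had no promoter in the set, so the half-site was not searched in them. Msh3 and Msh6 carried 4 and 5 GC boxes. These matches describe the windows only.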

How the data were processed

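Spleen RNA of 6 pools was measured on one-colour Agilent arrays. The deposited intensity values came from Agilent Feature Extraction 10.5.1.1, per the file headers and the processing notes: a background-subtracted, detrended processed signal, a mean spot signal and a local background, not normalized between arrays. The value table that the authors deposited is in log2 units and was found here to be scaled and centred on each probe's median, in the same direction (r with median-centred scanner values 0.999957 to 0.999979 per array). Its column medians were -0.025, 0.018 and -0.0082 for 900 cGy and 0.047, -0.0059 and -0.047 for 0 cGy, and it served as an alternative.

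The log2 processed signal was reduced by the log2 75th percentile of each array, which was 1144, 1114 and 1182 at 900 cGy and 1166, 1152 and 1403 at 0 cGy. Of 55681 probes, 39036 to 41267 per array were well above background and none was saturated. Precision is limited by there being 6 arrays. The 3671 control spots and 91 to 146 outlier spots per array were left out. The brightest probe stood for a gene and was kept if well above background on all 3 arrays of a group. Probe names were updated through RefSeq accessions (27235), symbols (3581) or synonyms (565), and 24300 kept the file's name. Groups were compared with limma 3.58.1 in R 4.3.3 (lmFit, eBayes), tested on simulated data first. Partner pairs were compared with two-sided exact permutation tests. There were 16 alternatives.

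The repair genes, the other lists, the marker lists and the partner pairs were chosen with earlier results of these data known. All 37 repair genes could be named, with values of every array for those past the threshold at 1.5-fold or more and for those opposite to their pathway. At most 3 genes per other list were named by size of change.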

Additional observations from a re-analysis of the deposited data

How the results depend on the processing

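None of the 24 called repair genes changed sign under any of the 16 alternatives, and 11 kept their call in all of them. The groups of each called gene did not overlap, so leaving out an array or using either row fit could not turn a sign. The replicate block and the fit without the background filter left every change as it was. Of the changes of single repair genes under all alternatives, 533 kept sign and side of the threshold, 30 lost the threshold, 10 gained it and 19 changed sign, all of these in genes not called. Spike-in scaling set the median of all genes at -0.33, against -0.06. It gave 4902 genes higher and 10685 lower, 2 repair genes higher and 24 lower, no nucleotide excision gene higher and 6 lower, and turned Ogg1 to -0.16, Nthl1 to -0.12, Ung to -0.12, Ercc1 to -0.16 and Mlh3 to -0.27. Slide row 1 alone, with fewer arrays, gave 4467 genes higher and 3929 lower, with 9 repair genes lower, among them 2 glycosylases, 2 later base excision genes and 1 nucleotide excision gene. The row block left 3 later base excision genes lower. No nucleotide excision gene was higher with either row fit, the mean of all passing probes or the replicate block, and 1 later base excision gene was higher with normexp or the mean of probes. Both row fits gave Ung 0.00, Ddb1 0.01 and Mlh3 -0.19, and quantile normalization, median scaling and the deposited table gave Mlh3 0.00. Leaving out each array in turn gave 0 to 1 nucleotide excision gene higher and 4 to 6 lower, 0 to 1 later base excision gene higher, 6452 to 7765 genes higher and 6814 to 8917 lower, 2 to 4 repair genes higher and 20 to 23 lower, and changes of -0.01 to 0.34 for Ung, -0.11 to 0.02 for Ddb1 and -0.08 to 0.10 for Mlh3.

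Same-numbered replicates did not deviate together (r of deviations 0.07, 0.12 and 0.00), so the numbers do not pair the pools. With the replicate block, 7145 genes were higher and 7559 lower, and 2 repair genes higher and 21 lower, with Ercc5 at 0.35 (limma, adjusted p = 0.0578). Ercc5 was also lost with the mean of its probes (0.22). The Ung value is limited by its probe, and 26 repair genes rest on 1 probe each; of 11 with several, 10 had 1 sign and 8 had 1 call.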
